A study of Mus musculus with 20 samples.

Results

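The genes that encode glutamate receptors and the proteins that hold them at the synapse were followed in the preoptic area (POA) of male mice. They are 38 of the 25239 genes of the deposited table, taken by symbol from a list made with earlier results of these data known. They comprise 4 AMPA receptor subunits (Gria), 5 kainate receptor subunits (Grik), 6 NMDA receptor subunits (Grin), the delta subunit Grid1, 6 metabotropic receptors (Grm), 14 scaffold proteins (Shank, Dlg, Dlgap and Homer) and 2 adhesion proteins (Nlgn1 and Nlgn3). RNA-Seq was performed on the POA of 20 males, with 5 mice in each of 4 groups. Control males were paired from postnatal day (PND) 20 with either a same-sex partner (control SS) or an opposite-sex partner (control OS). dnFGFR males were paired in the same manner (dnFGFR SS and dnFGFR OS). All tissue was taken on PND320, after 300 days, and the OS males had bred freely and lived with litters. dnFGFR mice carry, in homozygous form, a truncated FGF receptor 1 that lacks its kinase domain and is driven in GnRH neurons by a rat GnRH promoter. Control mice descended from heterozygous siblings and share that background. Since GnRH neurons are few among the cells of the POA, the transgene acts in a small part of the tissue that was sequenced.

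Glutamate is the main excitatory transmitter of the brain. AMPA and kainate receptors are channels that carry fast current, NMDA receptors are channels that admit calcium when transmitter and depolarization coincide, and metabotropic receptors act through G proteins. Beneath the receptors, PSD-95 (Dlg4) and its relatives bind receptor tails, Dlgap proteins join these to Shank proteins, and Homer proteins link Shank to group I metabotropic receptors. Neuroligins span the cleft to presynaptic neurexins. In the POA, glutamatergic input reaches GnRH neurons and the neurons that govern male sexual behavior.

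The 38 transcripts differ widely in base composition, and because the results below differ with GC content, sequences from both ends of this range are shown first. GC content of the longest transcript ranged from 36.8% in Gria2 to 65% in Grin2d, with a median of 49.2%, against 50.3% over all genes tested. The first 60 coding bases of 2 GC-poor and 2 GC-rich members are given below, with G and C in capitals, as read on the coding strand of GRCm38 (Gria2 chr3:80802325-80802384, minus strand, 35% GC; Grik2 chr10:49783200-49783259, minus strand, 36.7%; Grin2d chr7:45866508-45866567, minus strand, 76.7%; Shank3 chr15:89499632-89499691, plus strand, 78.3%). Each stretch lies within 1 coding exon.
Gria2: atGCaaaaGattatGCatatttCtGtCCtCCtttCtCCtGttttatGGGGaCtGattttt
Grik2: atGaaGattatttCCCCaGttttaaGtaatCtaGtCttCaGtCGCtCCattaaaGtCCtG
Grin2d: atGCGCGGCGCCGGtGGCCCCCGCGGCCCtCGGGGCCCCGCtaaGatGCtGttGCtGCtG
Shank3: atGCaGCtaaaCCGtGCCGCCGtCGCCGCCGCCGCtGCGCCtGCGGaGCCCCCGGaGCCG
Ionotropic subunits share a short conserved stretch in the pore region, which was found in 15 of the 16 channel subunits and not in Grin3a. Its 27 bases hold between 13 G or C bases (Gria3 and Gria4) and 17 (Grik3, Grik4 and Grik5). It is shown for 3 subunits, again with G and C in capitals (Gria4 chr9:4462017-4462043, Grik3 chr4:125694042-125694068 and Grin1 chr2:25297199-25297225; Grik3 on the plus strand and the others on the minus strand), because here a single run of residues is written with different bases.
Gria4: tCCtaCaCtGCtaatCtGGCtGCattC
Grik3: tCCtaCaCGGCCaaCCtGGCtGCCttC
Grin1: tCCtaCaCtGCCaaCCtGGCaGCCttC
Over the whole coding sequence, GC content ranged from 44.6% in Gria2 to 67.3% in Grin2d. For Dlg4 the 2 measures differ, with 46.8% in its longest transcript and 56.8% in its coding sequence.

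Between 32353578 and 39871353 reads were counted per mouse. dnFGFR OS replicate 5 stood apart from the other mice. It lay at 69.1 on the first principal component, which held 16.2% of the variance, with values of -30.1 to 16.2 for the other 19 mice. It had reads for 18416 genes, fewer than any other mouse (19101 to 19659). Across all genes, its counts declined by 0.358 on the log2 scale per 10 points of GC content, whereas the slopes of the other mice ranged from -0.117 to 0.128. Values without this mouse are given beside many of the results in which it takes part. The others are given only with this mouse included. Sacrifice dates did not overlap between control and dnFGFR mice, so that genotype and date cannot be told apart. In bulk tissue, fewer cells of a type and less RNA per cell cannot be told apart either.

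All 38 genes were expressed in every mouse, with at least 381 counts (Grm8). Levels per exon length are given in RPKM, as the mean and SD over 20 mice. Grin1, the obligate NMDA receptor subunit, was the highest at 121 ± 11 RPKM. It was followed by the scaffold Dlgap3 at 91.4 ± 13.8, the AMPA subunit Gria1 at 88.2 ± 7.12, the kainate subunit Grik5 at 73.8 ± 8.57, Dlg4 at 61.4 ± 4.83 and Gria2 at 58.5 ± 5.42 RPKM. The ranges of Grin1 (89.6 to 134 RPKM) and Dlgap3 (59.4 to 113 RPKM) overlapped across mice. Grm2, a presynaptic autoreceptor, was the lowest at 3.19 ± 0.70 RPKM, next to Grm8 (3.49 ± 0.409), Grik4 (3.62 ± 0.281) and Grik1 (4.05 ± 0.503), and these 4 lay within each other's spread. Among NMDA subunits that partner with Grin1, Grin2b stood at 12.9, Grin2c at 11.4, Grin2a at 6.89 and Grin2d at 6.18 RPKM. Among scaffolds, Shank3 (43.1 RPKM) and Shank1 (33.2) were above Shank2 (14.1), and Homer1 (12.4) was above Homer3 (7.66) and Homer2 (4.18). Summed by class, the 14 scaffolds came to 453.4 RPKM, the 4 AMPA subunits to 195.9, the 6 NMDA subunits to 165.7, the 5 kainate subunits to 111.2 and the 6 metabotropic receptors to 93.48. The level of 2 scaffolds depended strongly on the length used, since Dlg4 reached 117 RPKM (second among the 38) and Homer1 25 RPKM when the longest transcript was taken in place of all exons. Exons of other annotated genes covered 44.6% of the exon length of Nlgn3, 30.7% of Homer3 (with Ddx49), 29.9% of Grin1 (with the antisense gene Grin1os) and 10.4% of Nlgn1, and reads of these pairs cannot be told apart where strand was not used in counting.

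**Figure D1:**
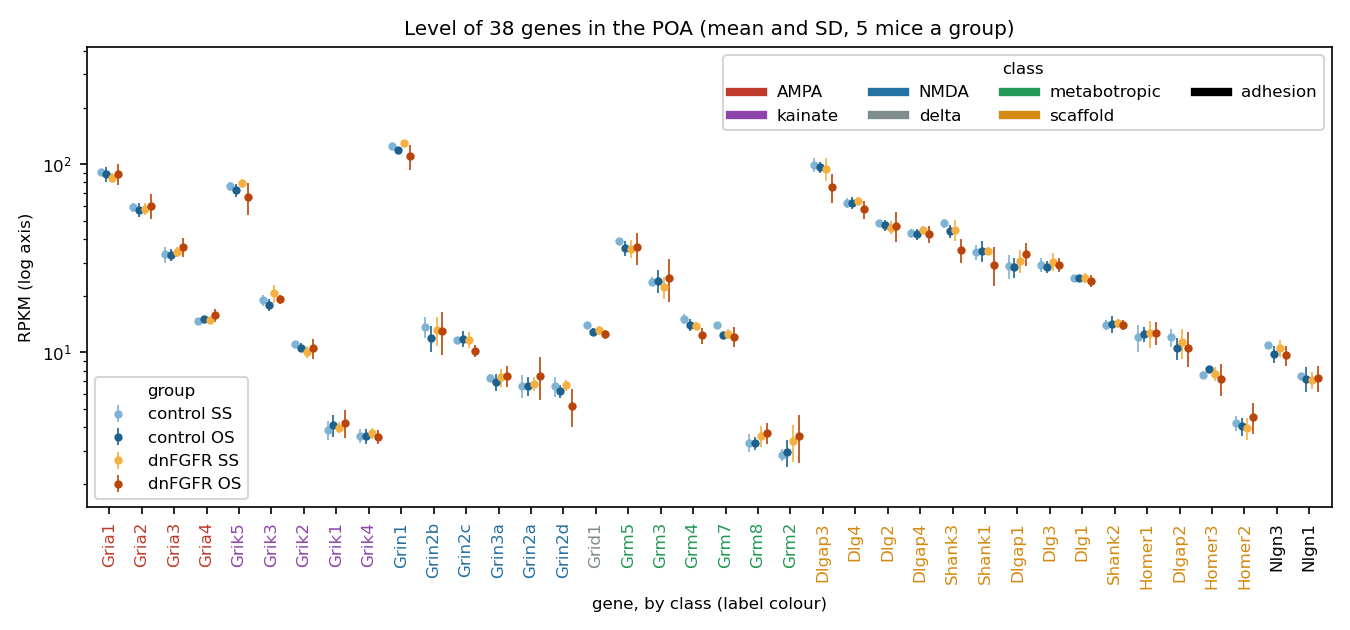
Mean RPKM with SD (log axis) of each of the 38 genes in the 4 groups of 5 mice, ordered by class and then by level, with classes marked by label color. Levels run from 121 RPKM in Grin1 to 3.19 RPKM in Grm2, a far wider span than any difference between groups.

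Whether OS housing altered these genes was asked first within each genotype. No member passed the test (edgeR, adjusted p under 0.1 over all genes) in control or in dnFGFR mice, over both genotypes, between genotypes in either housing, or in the interaction of housing and genotype. The members with the smallest adjusted p were the scaffold Shank3 over both genotypes and the presynaptic receptor Grm7 in control mice, each with less RNA in OS than in SS mice. AMPA subunits stood within 0.05 of zero on the log2 scale in control mice and between 0.06 and 0.09 above it in dnFGFR mice. Without dnFGFR OS replicate 5, the dnFGFR values lay between -0.03 (Gria2) and 0.06 (Gria4). Differences were small throughout, with log2 fold changes between -0.20 and 0.09 in control mice and between -0.36 and 0.21 in dnFGFR mice.

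In control mice, 0 of 38 members were called (0.124% of all 17004 genes tested were), and 5 members, or 13.2%, had an unadjusted p under 0.05 against 7.20% of all genes. All 5 were lower in OS mice (3.54% of all genes were lower at this p). DESeq2 called 1 member, Grm7, and limma voom with quality weights called the same gene. Both called more genes of all tested than edgeR did, as given in the last section. The median log2 fold change of the 38 was -0.034, and 27 of 38 were below zero, against a median of 0.002 over all genes. In dnFGFR mice, 0 of 38 were called (0% of 16944 genes), and DESeq2 and voom called 0 as well. Here 6 members (15.8%) had an unadjusted p under 0.05 against 6.72% of all genes, and all 6 were lower in OS mice (3.77% of all genes). The median was -0.033, and 21 of 38 were below zero, against a median of 0.004 over all genes. When dnFGFR OS replicate 5 was left out, 30 of 38 were below zero and the median was -0.07. Over both genotypes with genotype in the model, 0 of 38 were called by edgeR (0.0344% of 17445 genes) and by voom and 1, Shank3, by DESeq2. The number of all genes that DESeq2 called there is not given here. In the edgeR fit 9 members (23.7%) had an unadjusted p under 0.05, all with less RNA in OS mice, against 11.1% of all genes in either direction and 5.63% in this one. These counts moved with single mice, and shares over all genes in the fits without a mouse are not given here. In control mice, the 5 became 3 without control SS replicate 1, 4 or 5 or control OS replicate 2, and 2 without control OS replicate 4. They became 6 without control OS replicate 1 and 7 without control OS replicate 3. In dnFGFR mice, the 6 became 2 without dnFGFR SS replicate 2 or 5 or dnFGFR OS replicate 3 or 5, and 3 without dnFGFR SS replicate 3 or dnFGFR OS replicate 1. They became 7 without dnFGFR OS replicate 4 and 9 without dnFGFR OS replicate 2.

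**Figure D2:**
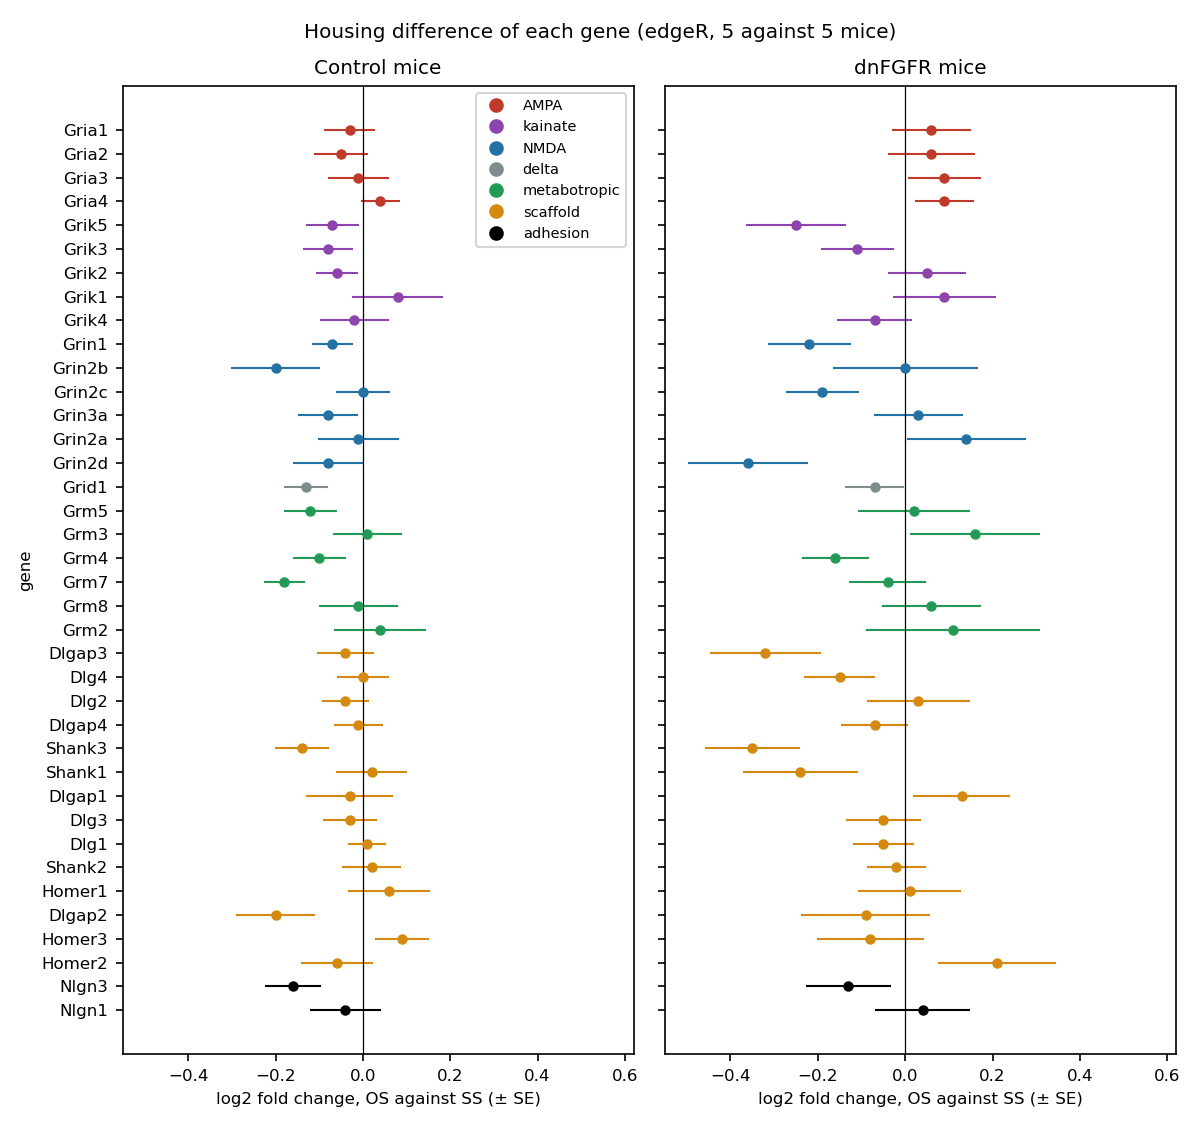
Log2 fold change of each gene in OS against SS mice with its SE (edgeR, 5 against 5 mice), in control mice on the left and dnFGFR mice on the right, colored by class. In dnFGFR mice the 4 AMPA subunits lie between 0.06 and 0.09, and Grin2d, Shank3 and Dlgap3 lie lowest, at -0.36, -0.35 and -0.32. Without dnFGFR OS replicate 5, which is included here, the AMPA values lay between -0.03 and 0.06.

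AMPA subunits form the channels of most fast excitatory synapses. Their summed level ranged from 1340 to 1460 CPM (counts scaled to the normalized library size) in control SS mice, 1260 to 1520 in control OS mice, 1270 to 1460 in dnFGFR SS mice and 1290 to 1710 in dnFGFR OS mice. The highest value was that of dnFGFR OS replicate 5. Gria4 gave 93.9, 90.8, 88.1, 91.9 and 95.4 CPM in control SS mice, 98.9, 92.3, 97.9, 93.6 and 91.2 in control OS mice, 93.8, 92.3, 94, 91.5 and 93.7 in dnFGFR SS mice and 96.9, 86.6, 105, 99.1 and 106 in dnFGFR OS mice. The 4 groups overlapped, and dnFGFR OS mice held both the lowest and the highest value. Its log2 fold change in OS mice was 0.04 (SE 0.0447, adjusted p = 0.906) in control mice and 0.09 (SE 0.0677, adjusted p = 0.818) in dnFGFR mice, and these were the smallest p-values of the class. The median of the 4 subunits was -0.02 in control mice and 0.076 in dnFGFR mice, where it became 0.01 without dnFGFR OS replicate 5 and 0.013 when the trend of log2 counts with GC content and length was removed mouse by mouse.

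Kainate subunits pair Grik4 or Grik5, which bind glutamate with high affinity, with Grik1, Grik2 or Grik3. In dnFGFR mice 3 of the 5 were below zero and the median was -0.068, and in control mice 4 of 5 with a median of -0.058. Grik5 gave 314, 269, 285, 289.8 and 278 CPM in control SS mice, 282, 269, 242, 271 and 303 in control OS mice, 283, 322, 310.5, 293 and 288 in dnFGFR SS mice and 241, 322, 237, 268 and 189.8 in dnFGFR OS mice. dnFGFR OS replicate 5 was the lowest of all 20 mice, and dnFGFR OS replicate 2 was among the highest. The log2 fold change of Grik5 was -0.25 (SE 0.114, adjusted p = 0.726) in dnFGFR mice and -0.07 (SE 0.0604) in control mice. The dnFGFR value was -0.16 (SE 0.0907) without dnFGFR OS replicate 5. It was -0.04 (SE 0.0751) without that mouse and with the GC and length trend removed, an alternative chosen after seeing the data. Grik3 gave 171, 169.6, 164, 158 and 186 CPM in control SS mice, 176, 146, 166, 159.8 and 153 in control OS mice, 208, 183, 163, 203 and 166 in dnFGFR SS mice and 161, 160.4, 175, 177 and 182 in dnFGFR OS mice. The groups of control mice overlapped for Grik3, and the difference was -0.08 (SE 0.058, adjusted p = 0.806), the kainate subunit with the smallest p there. Grik2 gave 120.5, 112, 114, 115 and 114 CPM in control SS mice, 113, 103, 119.5, 109 and 107 in control OS mice, 114, 111, 93.7, 105 and 103 in dnFGFR SS mice and 118, 95.7, 97, 108 and 125 in dnFGFR OS mice. In SS housing the value of Grik2 in dnFGFR against control mice was -0.13 on the log2 scale (SE 0.0529, adjusted p = 0.496), although dnFGFR SS replicate 1 lay within the control range.

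NMDA receptors contain Grin1 and 2 further subunits that set their kinetics. In dnFGFR mice, 3 of the 6 (Grin1, Grin2c and Grin2d) had an unadjusted p under 0.05, all lower in OS mice, and the other 3 lay at 0.00 to 0.14. Grin2d, a subunit of slowly deactivating receptors in hypothalamus and interneurons, gave 37.6, 40.6, 38.2, 48.7 and 37.6 CPM in control SS mice, 37.7, 43.6, 35.9, 36.6 and 38.5 in control OS mice, 42.1, 41.3, 44.4, 36.5 and 41 in dnFGFR SS mice and 34.2, 30.4, 33.8, 40.6 and 20.9 in dnFGFR OS mice. Of the dnFGFR OS mice, 4 were below all 5 dnFGFR SS mice, and replicate 4 was not. The log2 fold change of Grin2d was -0.36 (SE 0.138, adjusted p = 0.726), and -0.24 (SE 0.0904, adjusted p = 0.843) without dnFGFR OS replicate 5. In control mice it was -0.08 (SE 0.0799). Without dnFGFR OS replicate 5 and with the GC and length trend removed, the dnFGFR value of Grin2d was -0.02 (SE 0.0772). Grin1 gave 585, 527, 539.5, 529 and 541 CPM in control SS mice, 533, 518, 497, 511 and 538 in control OS mice, 537, 586, 574, 542 and 574 in dnFGFR SS mice and 458, 550.1, 453, 560.5 and 391 in dnFGFR OS mice. In dnFGFR OS mice, 3 of 5 values lay below all other groups and 2 lay within them. Its log2 fold change was -0.22 (SE 0.0952, adjusted p = 0.726) in dnFGFR mice and -0.07 (SE 0.0466) in control mice. The dnFGFR value was -0.15 (SE 0.0797), with an unadjusted p above 0.05, without dnFGFR OS replicate 5. With the trend removed as well, it was -0.06 (SE 0.0684).

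Grin2c, a subunit known best from cerebellum and glia, gave 57.7, 58, 58.9, 59.6 and 61.7 CPM in control SS mice, 63.2, 53.8, 62.4, 52.5 and 64.6 in control OS mice, 54.3, 65.8, 63.3, 51.3 and 59.6 in dnFGFR SS mice and 52.8, 55.5, 49.1, 53.8 and 46.5 in dnFGFR OS mice. In dnFGFR OS mice, 2 of 5 values lay below those of all other groups. Its log2 fold change was -0.19 (SE 0.0836, adjusted p = 0.726) in dnFGFR mice, or -0.15 (SE 0.0819) with an unadjusted p above 0.05 without dnFGFR OS replicate 5, and 0.00 (SE 0.0626) in control mice. Without dnFGFR OS replicate 5 and with the GC and length trend removed, the dnFGFR value of Grin2c was 0 (SE 0.0727). Grin2b, which is prominent in development and in forebrain, gave 364, 305, 313, 312 and 406 CPM in control SS mice, 349, 239.9, 339, 288 and 265 in control OS mice, 337, 358, 242, 385 and 296 in dnFGFR SS mice and 305, 220.4, 310.1, 326 and 451 in dnFGFR OS mice. Control OS replicate 2, dnFGFR SS replicate 3 and dnFGFR OS replicate 2 were the lowest, and dnFGFR OS replicate 5 was the highest of all mice. The log2 fold change of Grin2b was -0.20 (SE 0.103, adjusted p = 0.716) in control mice and 0.00 (SE 0.166) in dnFGFR mice, where it was -0.15 (SE 0.139) without dnFGFR OS replicate 5. The median of the 6 NMDA subunits was -0.073 in control mice and -0.096 in dnFGFR mice. Without dnFGFR OS replicate 5, all 6 were below zero in dnFGFR mice with a median of -0.153, and with the trend with GC content and length removed in all 10 mice the median was -0.016. Grid1, an orphan relative that bridges synapses through cerebellins, gave 83.2, 82.8, 79.1, 75.6 and 77.9 CPM in control SS mice, 72.6, 72.9, 79, 69.5 and 71 in control OS mice, 77.4, 75, 67.7, 77.6 and 77 in dnFGFR SS mice and 71.6, 66.3, 69.4, 77.2 and 72.5 in dnFGFR OS mice. In control mice its log2 fold change was -0.13 (SE 0.0495, adjusted p = 0.573), with the OS mouse replicate 3 inside the SS range, and in dnFGFR mice -0.07 (SE 0.0671, adjusted p = 0.845).

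Metabotropic receptors fall into groups that raise (Grm5) or lower (Grm2, Grm3, Grm4, Grm7 and Grm8) neuronal excitability or release. Grm7, a receptor of presynaptic release sites, gave 58.4, 61.6, 59.1, 58.5 and 61.8 CPM in control SS mice, 49.8, 53.3, 54.3, 52.1 and 54.2 in control OS mice, 55.2, 54.4, 48, 56.3 and 53.2 in dnFGFR SS mice and 56.9, 48.6, 43, 52.4 and 58.3 in dnFGFR OS mice. All 5 control SS mice lay above all 5 control OS mice, and above all 5 dnFGFR SS mice. These 2 separations share the control SS mice and are not independent. Grm7 was the 1 member whose control housing groups did not overlap (1.58% of 17445 genes did not), and the 1 member whose genotype groups in SS housing did not (1.55%). No member had separate groups by housing in dnFGFR mice (1.42% of genes) or by genotype in OS housing (1.54%). In control mice the log2 fold change was -0.18 (SE 0.0471, adjusted p = 0.252). Across the alternatives that left out 1 control mouse, it stayed between -0.20 and -0.16. With the GC and length trend removed it was -0.20 (SE 0.0471, adjusted p = 0.173). In dnFGFR mice it was -0.04 (SE 0.0885, adjusted p = 0.927), and the difference between genotypes in the housing response was 0.14 (SE 0.0969, adjusted p = 0.963). Without dnFGFR OS replicate 5 these were -0.09 (SE 0.0855) and 0.10 (SE 0.0903). In SS housing Grm7 was lower in dnFGFR than in control mice, by -0.17 (SE 0.0504, adjusted p = 0.308).

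Grm4, a presynaptic receptor known from striatal and cerebellar synapses, gave 85.7, 81, 89, 87.1 and 76.5 CPM in control SS mice, 75.6, 86.2, 74.2, 72.4 and 83.4 in control OS mice, 79.5, 80.1, 71.6, 73.8 and 79.2 in dnFGFR SS mice and 76.5, 68.6, 59.7, 73.4 and 65.2 in dnFGFR OS mice. The dnFGFR OS mice held the 3 lowest of the 20 values, and the other 2 lay among those of the other groups. Its log2 fold change by housing was -0.10 (SE 0.0609) in control mice, -0.16 (SE 0.0767, adjusted p = 0.726) in dnFGFR mice and -0.13 (SE 0.0482, adjusted p = 0.311) over both genotypes. Without dnFGFR OS replicate 5 it was -0.14 (SE 0.0785) in dnFGFR mice and -0.12 (SE 0.0473) over both genotypes. With the GC and length trend removed, the sign turned in dnFGFR mice (0.05, SE 0.0832) and the value was near zero over both genotypes (0.01, SE 0.0524). Grm5, the main postsynaptic group I receptor of forebrain, gave 331, 323, 308, 311 and 312 CPM in control SS mice, 298, 265, 331, 300.3 and 264 in control OS mice, 322, 306, 238, 306 and 279 in dnFGFR SS mice and 313, 256, 227, 298 and 379 in dnFGFR OS mice. dnFGFR SS replicate 3 and dnFGFR OS replicates 2 and 3 were low, and dnFGFR OS replicate 5 was the highest. In SS housing the log2 fold change of dnFGFR against control mice was -0.13 (SE 0.0692, adjusted p = 0.636). The median by housing over the 6 metabotropic receptors was -0.055 in control and 0.04 in dnFGFR mice. The dnFGFR median was -0.045 without dnFGFR OS replicate 5, so its sign rests on this mouse.

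Scaffold proteins had the member nearest to the threshold over both genotypes. Shank3, a core organizer of the postsynaptic density, gave 386, 349, 355, 397 and 362 CPM in control SS mice, 372, 325, 297, 342 and 345 in control OS mice, 319, 404, 346, 289.6 and 350.4 in dnFGFR SS mice and 253, 249, 263, 336 and 236 in dnFGFR OS mice. In dnFGFR OS mice, 4 of 5 values lay below all of the other 15 mice, and replicate 4 lay within them. The log2 fold change by housing was -0.14 (SE 0.0615, adjusted p = 0.664) in control mice, -0.35 (SE 0.109, adjusted p = 0.726) in dnFGFR mice and -0.24 (SE 0.0671, adjusted p = 0.178) over both genotypes. Without dnFGFR OS replicate 5 these last 2 values were -0.31 (SE 0.109) and -0.22 (SE 0.0646). With the GC and length trend removed, they were -0.12 (SE 0.0793, adjusted p = 0.976) and -0.09 (SE 0.0458, adjusted p = 0.617). Without dnFGFR OS replicate 4, the value over both genotypes was -0.28 and passed the threshold of 0.1. The number of all genes that passed in that fit is not given here. Dlgap3, a Shank partner known for its high level in striatum, gave 493, 392, 429.8, 434 and 416 CPM in control SS mice, 422, 441, 386, 402 and 459 in control OS mice, 349, 447, 443, 354 and 470.2 in dnFGFR SS mice and 316, 386, 293, 397 and 259.7 in dnFGFR OS mice. In dnFGFR OS mice, 3 of 5 values lay below those of all other groups. Its log2 fold change was -0.32 (SE 0.127, adjusted p = 0.726) in dnFGFR mice and -0.04 (SE 0.0649) in control mice. In dnFGFR mice it was -0.24 (SE 0.117) without replicate 5 of the OS group and -0.07 (SE 0.0807) with the trend removed.

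The other scaffolds stood between -0.24 (Shank1) and 0.21 (Homer2) in dnFGFR mice and between -0.20 (Dlgap2) and 0.09 (Homer3) in control mice. Dlg4 was at -0.15 (SE 0.0807) in dnFGFR and at 0.00 (SE 0.0591) in control mice. In dnFGFR mice, 10 of 14 scaffolds were below zero with a median of -0.061, against 10 of 22 receptor subunits with a median of 0.026. Leaving out dnFGFR OS replicate 5, 12 of 14 scaffolds (median -0.078) and 16 of 22 receptor subunits (median -0.033) were below zero, so the sign of the receptor median rests on this mouse. With the trend removed, the medians were -0.03 for scaffolds and -0.021 for receptor subunits. In control mice, 8 of 14 scaffolds (median -0.019) and 17 of 22 receptor subunits (median -0.054) were below zero, so the class with the lower median was not the same in the 2 genotypes. For the adhesion genes, Nlgn3 gave 92.9, 92.3, 95.8, 97.4 and 91 CPM in control SS mice, 90.2, 72.3, 93.5, 85 and 78.6 in control OS mice, 102, 91.4, 77.5, 95.2 and 85.2 in dnFGFR SS mice and 90.6, 67.4, 78, 88.6 and 88.7 in dnFGFR OS mice. In control mice its log2 fold change was -0.16 (SE 0.0642, adjusted p = 0.582), with 4 of 5 OS mice below all SS mice and replicate 3 among them. In dnFGFR mice it was -0.13 (SE 0.0978, adjusted p = 0.819), or -0.15 (SE 0.101) without dnFGFR OS replicate 5. Over both genotypes it was -0.14 (SE 0.0587, adjusted p = 0.354) and, with the GC and length trend removed, -0.13 (SE 0.0406, adjusted p = 0.349), the member with the smallest p in that fit.

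**Figure D3:**
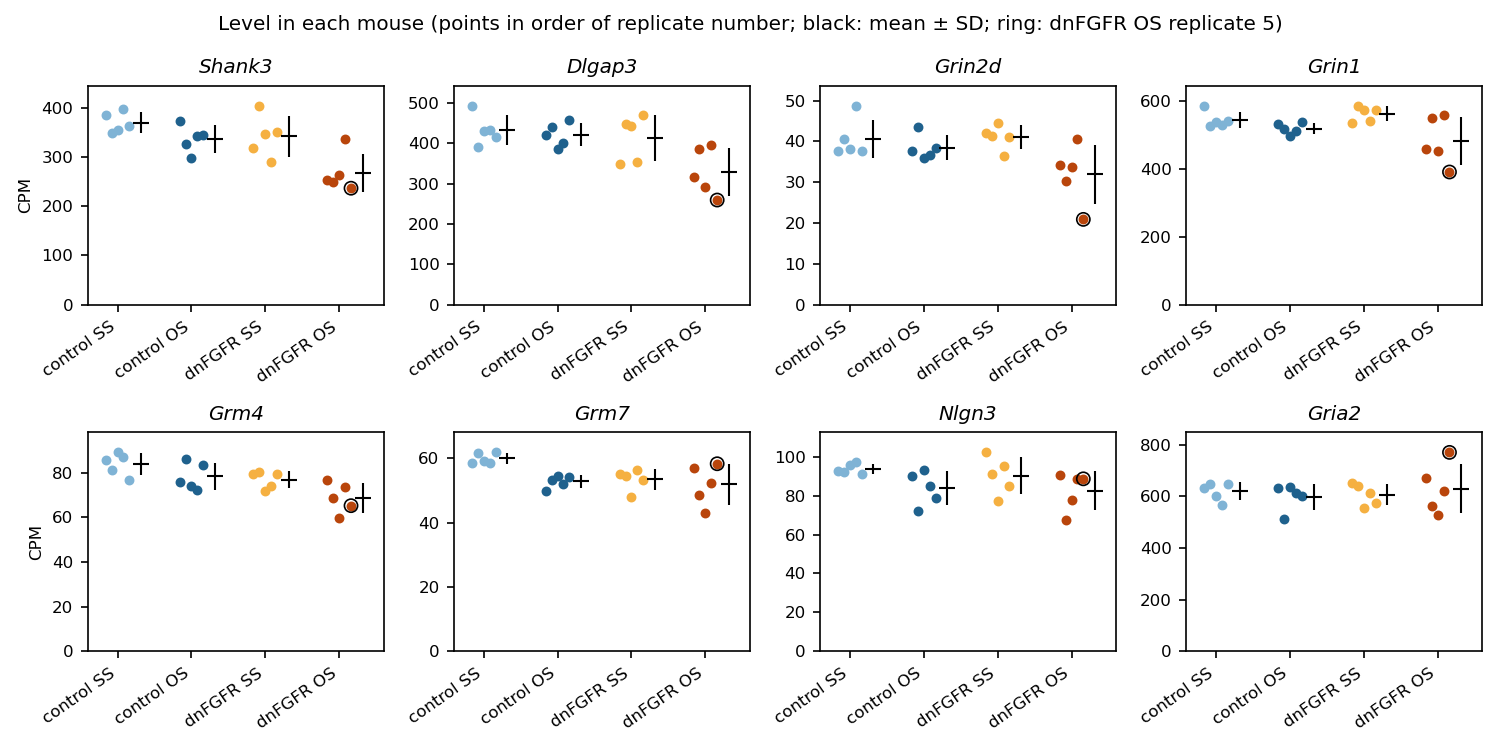
CPM in each mouse for 8 genes, with points in order of replicate number within a group, mean and SD in black, and dnFGFR OS replicate 5 ringed. For Grm7 the control SS mice (58.4 to 61.8 CPM) lie above the control OS mice (49.8 to 54.3 CPM), and for Shank3 4 of 5 dnFGFR OS mice (236 to 263 CPM) lie below the other groups.

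The members' housing differences in dnFGFR mice followed GC content. Of the 10 members with a GC content of 59% or more (Dlgap4, Grin1, Homer3, Shank1, Grm4, Grin2c, Grik5, Shank3, Dlgap3 and Grin2d), all 10 were below zero, with a median of -0.228. The same held for 88.7% of the 1375 genes tested with such GC content, with a median of -0.183. Of the 28 members below 59%, 11 were below zero (median 0.031), against 45.4% of 15364 genes (median 0.016). Spearman's rho between log2 fold change and GC content was -0.698 over the 38 members and -0.493 over all genes. These correlations run across genes measured in the same mice, and genes are not independent replicates. The 59% limit was chosen after these values were seen. All 6 members with an unadjusted p under 0.05 in dnFGFR mice were among the 10.

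Without dnFGFR OS replicate 5, the 10 GC-rich members remained below zero (median -0.159), as were 78.2% of GC-rich genes (median -0.108), while the 28 other members went from 11 to 20 below zero (median -0.033), against 47.7% of genes below 59% (median 0.006). The contrast in sign between GC-rich and other members thus rests largely on this mouse. Without it, rho was -0.502 over members and -0.286 over all genes. With the trend with GC content and length removed, 6 of the 10 were below zero with a median of -0.038, rho was 0.0631 over members, and 0 of 38 members had an unadjusted p under 0.05. With both changes, 7 of the 10 were below zero with a median of -0.031. In control mice, rho was -0.0979 over members and -0.0877 over all genes, and GC-rich members had a median of -0.054 against -0.023 for GC-rich genes. With the trend removed in control mice, 4 members had an unadjusted p under 0.05 (Grm7, Nlgn3, Grm5 and Grid1), as did 1251 of 17004 genes. Of these 4, Grm5 was not under 0.05 before, and Shank3 and Dlgap2 no longer were. All 4 were below zero and had a GC content under 50%. What part of a housing difference such a correction takes away with the trend was not tested.

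**Figure D4:**
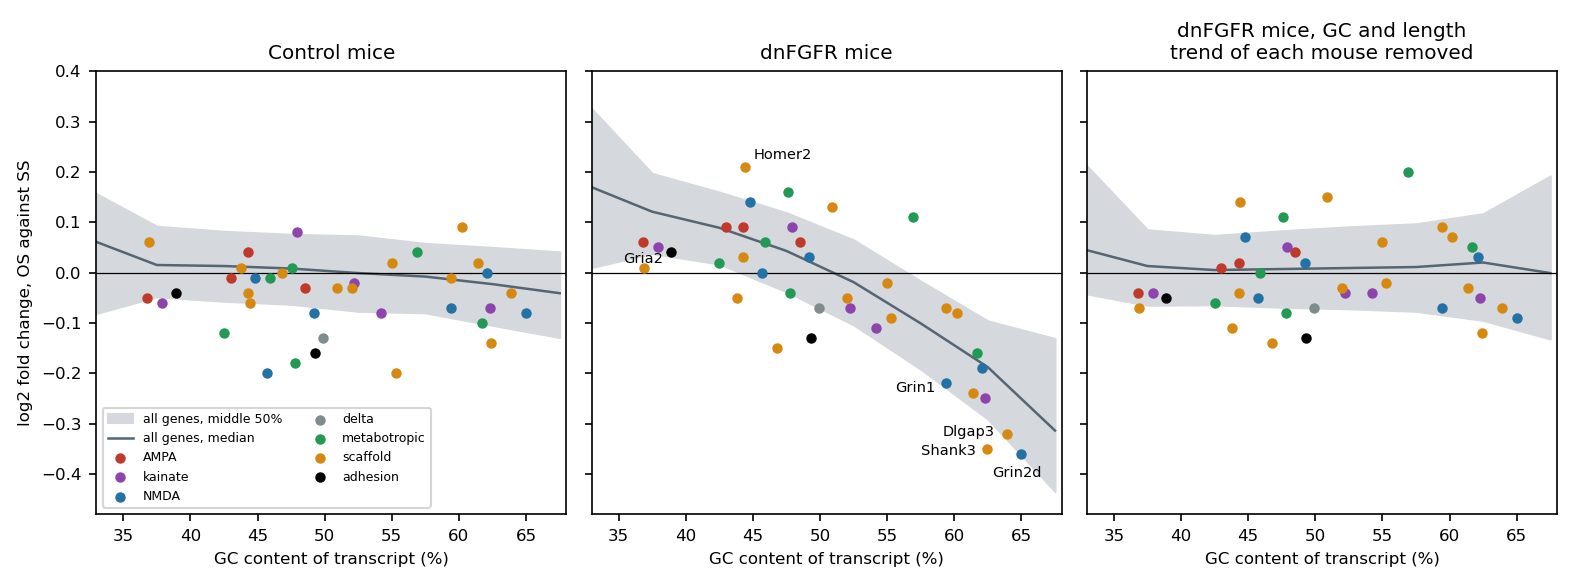
Log2 fold change in OS against SS mice of each member against the GC content of its longest transcript, in control mice, in dnFGFR mice, and in dnFGFR mice after the trend of log2 counts with GC content and length was removed mouse by mouse, with the median (line) and middle 50% (gray) of all genes in steps of 5 points of GC content. In dnFGFR mice the median of all genes descends from 0.121 at 35 to 40% GC to -0.188 at 60 to 65%, and the members descend with it.

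The level of the GC-rich members can be set beside the slope of each mouse, and did not follow it in every mouse. The 10 GC-rich members had a mean log2 level, relative to their mean over 20 mice, of -0.41 in dnFGFR OS replicate 5, whose slope on GC content was the lowest. In dnFGFR OS replicates 1 and 3, with slopes of -0.117 and -0.0853, the level was -0.21 and -0.225. It was -0.09 in dnFGFR OS replicate 2, which had a slope of 0.104, and 0.06 in replicate 4, which had a slope of -0.00408. The range was -0.004 to 0.13 in control SS mice, -0.05 to 0.13 in control OS mice and -0.04 to 0.13 in dnFGFR SS mice. Control OS replicate 3 had the lowest slope of the control mice, at -0.0896, and the lowest level among control OS mice was -0.05. Within its group, that mouse had the lowest CPM for Grik5, Grin1, Grin2d, Shank3, Dlgap3, Dlgap4 and Homer3. It did not for Grin2c, Grm4 and Shank1. The 28 other members stood at 0.195 in dnFGFR OS replicate 5 and between -0.16 and 0.11 in the other 19 mice.

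**Figure D5:**
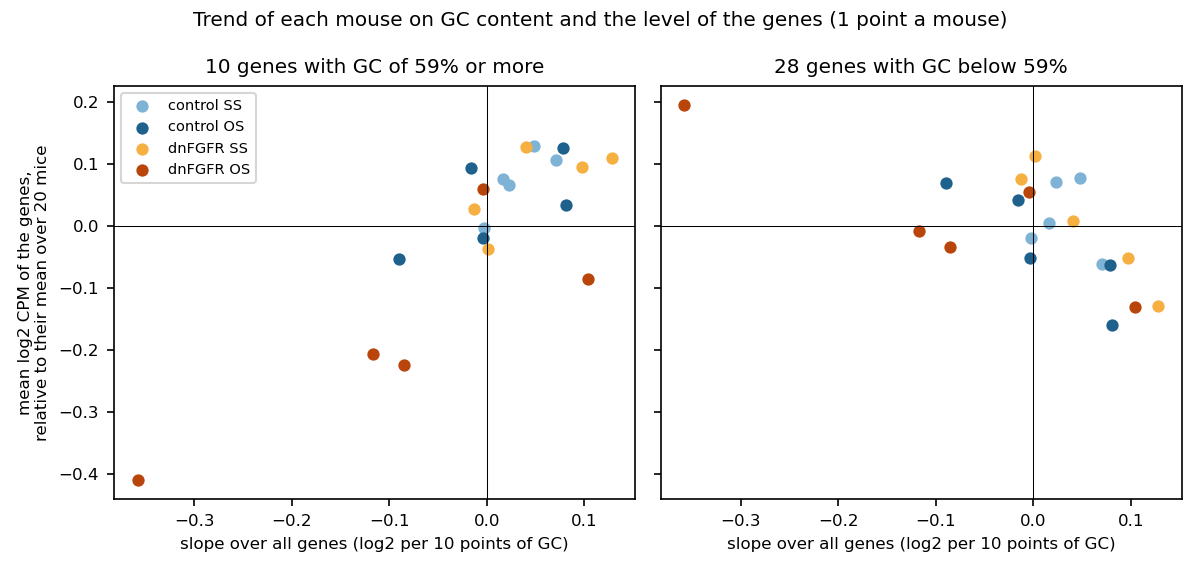
Mean log2 CPM of the 10 members with GC of 59% or more (left) and of the other 28 (right), relative to their mean over 20 mice, against each mouse's slope over all genes in log2 units per 10 points of GC content, with 1 point for each mouse. dnFGFR OS replicate 5 lies at a slope of -0.358, with the GC-rich members at -0.41 and the others at 0.195.

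Between genotypes in SS housing, 0 of 38 members were called (0.200% of 16992 genes), by DESeq2 and voom as well, and 3 members (7.89%), Grm7, Grik2 and Grm4, had an unadjusted p under 0.05 against 8.63% of genes. All 3 were lower in dnFGFR mice (4.51% of genes). Grm4 was at -0.13 (SE 0.0541, adjusted p = 0.512). In OS housing, 0 of 38 were called (0.0531% of 16941 genes), likewise with DESeq2 and voom. There 5 members (13.2%) had an unadjusted p under 0.05 against 7.02% of genes, 4 of them lower in dnFGFR mice (10.5% of members and 3.93% of genes). Shank3 was at -0.33 (SE 0.0977, adjusted p = 0.6), Dlgap3 at -0.36 (SE 0.109, adjusted p = 0.6), Grin2c at -0.20 (SE 0.0807, adjusted p = 0.655), Grm4 at -0.19 (SE 0.0809, adjusted p = 0.666) and Dlgap1 at 0.24 (SE 0.109, adjusted p = 0.7). With the GC and length trend removed, Shank3 and Dlgap3 were both at -0.18 (SE 0.0651 and 0.0629, adjusted p = 0.517 for each). In the fit that left out dnFGFR OS replicate 5, Shank3 was at -0.29 (SE 0.0972), Dlgap3 at -0.28 (SE 0.0942), Grin2c at -0.17 (SE 0.0796), Grm4 at -0.18 (SE 0.0835) and Dlgap1 at 0.16 (SE 0.0963), the last 3 with an unadjusted p above 0.05. This comparison shares its dnFGFR OS mice with the housing comparison in dnFGFR mice, so the 2 are not independent. In SS housing, the 3 became 1 without control SS replicate 1 and 5 without dnFGFR SS replicate 2. In OS housing, the 5 became 2 without dnFGFR OS replicate 3 and 3 without control OS replicate 2 or 5. They became 6 without dnFGFR OS replicate 1 or 4 and 7 without dnFGFR OS replicate 2. For these fits too, shares over all genes are not given here.

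For the interaction of housing and genotype, 0 of 38 members were called (0% of 17445 genes) with edgeR, DESeq2 and voom, and 0 of 38 had an unadjusted p under 0.05 against 3.41% of all genes. The smallest p-values belonged to Dlgap3 (-0.28, SE 0.15), Grin2c (-0.19, SE 0.104), Grin2d (-0.28, SE 0.168) and Shank3 (-0.21, SE 0.129), with an adjusted p of 0.963 for each. These were, with dnFGFR OS replicate 5 left out, -0.20 (SE 0.136), -0.15 (SE 0.102), -0.16 (SE 0.122) and -0.17 (SE 0.127) in the same order. The housing responses of control and dnFGFR mice were therefore not shown to differ for any member. Their intervals were wide, with SEs between 0.075 (Gria4) and 0.24 (Grm2). Without dnFGFR OS replicate 2 or 4, 4 members had an unadjusted p under 0.05, and 3 without dnFGFR SS replicate 4, while leaving out any other mouse gave 0 or 1. Voom gave 4 with all mice. The share of 3.41% belongs to the edgeR fit of all mice, and shares over all genes in these other fits are not given here.

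Each genotype had 2 sacrifice dates that held both housings, with 2 SS beside 5 OS mice among controls and 2 SS beside 4 OS mice among dnFGFR mice. With date as a block within these dates, 0 members were called and all adjusted p-values of the named members were 1 in each genotype. Grm7 was at -0.19 (SE 0.0774) in control mice, and was the only member under 0.05 there. In dnFGFR mice, Grin2d was at -0.61 (SE 0.18) and Shank3 at -0.42 (SE 0.135), the only members with an unadjusted p under 0.05 there. Dlgap3 (-0.40, SE 0.21) and Grin1 (-0.31, SE 0.163) had the same sign as in all mice. The trend with GC content and length was not removed in these fits, and shares over all genes are not given here.

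Among 40 other genes of glutamatergic synapses, 39 passed the filter on low counts and 0 were called by edgeR in any comparison. In control mice 0 of 39 had an unadjusted p under 0.05 (7.20% of all genes did). In dnFGFR mice 5 did, all lower in OS mice, against 6.72% of all genes in either direction and 3.77% lower, namely Nlgn2 (-0.35, SE 0.0964), Iqsec2 (-0.26, SE 0.0717), Nrxn2 (-0.21, SE 0.0876), Cacng8 (-0.41, SE 0.185) and Grin3b (-0.64, SE 0.237), each with an adjusted p of 0.726. Nlgn2 is the neuroligin of inhibitory synapses, Iqsec2 regulates small GTPases under the receptors, Nrxn2 is a presynaptic partner of neuroligins, and Cacng8 is an AMPA receptor auxiliary subunit. The GC content of these 5 genes, and their values with the trend removed or without dnFGFR OS replicate 5, are not given here. Of all genes with a GC content of 59% or more, 88.7% were below zero by housing in dnFGFR mice. Over both genotypes 7 of 39 had an unadjusted p under 0.05, all lower in OS mice (5.63% of all genes). Between genotypes the count was 6 in SS housing, with 4 higher and 2 lower in dnFGFR mice (8.63% of all genes), and 4 in OS housing, with 2 higher and 2 lower (7.02%). In the interaction it was 3, all below zero (3.41%). The 6 glutamate transporters of this list were all above zero in dnFGFR mice, with a median of 0.126 and none under 0.05 (5 of 6 and 0.062 without dnFGFR OS replicate 5), and 5 of 6 were above zero in control mice (median 0.024). Of the 14 auxiliary subunits, 9 were below zero in dnFGFR and 10 in control mice.

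Markers of other cells and neighboring tissue were measured beside these genes. All 5 markers of striatal medium spiny neurons (Drd1, Drd2, Ppp1r1b, Adora2a and Rgs9) were below zero by housing in both genotypes, with a median of -0.061 in control and -0.237 in dnFGFR mice. Between genotypes, the medians were -0.191 in SS and -0.307 in OS housing. None was called. Their summed level ranged from 1840 to 2220 CPM in control SS, 1740 to 2120 in control OS, 1660 to 2060 in dnFGFR SS and 1120 to 1800 in dnFGFR OS mice, and so no mouse was near 0. In dnFGFR mice the median was -0.274 without dnFGFR OS replicate 5 and -0.129 with the GC and length trend removed. Shank3, Dlgap3 and Grm4 were lower in the same group, and the part of striatal tissue in their values was not tested. Astrocyte markers (5 genes) had medians by housing of 0.054 in control and 0.164 in dnFGFR mice, oligodendrocyte markers (5 genes) 0.056 and 0.08, and microglial markers (5 genes) 0.005 and 0.12. Markers of cortical or hippocampal neurons (5 genes) were all higher in dnFGFR mice, with medians of 0.561 in SS and 0.515 in OS housing. Their summed level ranged from 153 to 553 CPM in control SS, 237 to 601 in control OS, 382 to 773 in dnFGFR SS and 305 to 805 in dnFGFR OS mice. The genotypes thus overlapped in each housing. Choroid plexus markers (5 genes) spanned 35.2 to 1070, 51.1 to 1940, 37.4 to 1590 and 37.1 to 2160 CPM in the same order of the 4 groups, with a median by housing of 1.519 in control and 0.412 in dnFGFR mice. General neuronal markers (5 genes) had medians by housing of -0.034 in control and 0.046 in dnFGFR mice. The 9 preoptic and hypothalamic markers, among them Gnrh1, Gal and Esr1, summed to 1300 to 1950 CPM over the 20 mice, with medians by housing of 0.01 in control and 0.10 in dnFGFR mice.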

How the data were processed

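POA samples were sequenced as paired-end reads by the authors, who aligned them with HISAT2 to GRCm38 and counted reads per RefSeq gene with Rsubread. The values are raw counts as deposited. Strand options are not given in the sources used here. The authors used DESeq2 1.36.0 per the labels, and removed mice as outliers that the labels do not name. A further 20 columns of the table were not used here. Groups followed the labels. Counts were fitted over all genes with edgeR 4.0.16 (quasi-likelihood test, TMM, filterByExpr, R 4.3.3), with Benjamini-Hochberg adjusted p under 0.1 as the threshold. DESeq2 1.42.0 and voom with quality weights (limma 3.58.1) were alternatives, and the scripts were tested on simulated data. RPKM used the union of exons in GENCODE basic (GRCm38), and GC content the longest transcript. The trend with GC content and length was removed per mouse with splines (5 degrees of freedom). Full statistics were given for the 4 members with the smallest p in each comparison, for called members and for the smallest p of each class by housing. Members and gene lists were chosen with earlier results of these data known. The p-values measure the spread between these mice. Some items of these lists are not reported here.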

Additional observations from a re-analysis of the deposited data

Results flagged for a closer look

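Among 152 groups of 5 mice (38 genes in 4 groups), 9 held a mouse whose gap to the nearest of the other 4 was large for the range of its group, and chance flags about 1 in 20 groups, or 7.6 of 152. In control SS mice, replicate 1 was high for Grin1 (585 CPM, others 527 to 541) and Dlg4 (824 CPM, others 713 to 739), and replicate 4 was high for Grin2d (48.7 CPM, others 37.6 to 40.6). In control OS mice, replicate 2 was low for Gria2 (511 CPM, others 601 to 636) and replicate 3 was high for Nlgn1 (108 CPM, others 75.4 to 83.4). In dnFGFR SS mice, replicate 3 was low for Grid1 (67.7 CPM, others 75 to 77.6). In dnFGFR OS mice, replicate 5 was high for Grin2a (161 CPM, others 90.8 to 109) and Grm3 (110 CPM, others 60.1 to 71.6), and replicate 4 was high for Shank3 (336 CPM, others 236 to 263).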

How the results depend on the processing

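The count of called members was 0 in all 6 comparisons and remained 0 under 142 of 146 combinations of comparison and alternative. The 4 exceptions were 1 member called by DESeq2 and 1 by voom in control mice (Grm7), 1 by DESeq2 over both genotypes (Shank3), and a range of 0 to 1 over both genotypes when each mouse was left out in turn (1, Shank3, without dnFGFR OS replicate 4). For the calls of Shank3, the numbers of all genes called are not given here. For named members, 748 log2 fold changes kept their direction and side of the threshold, 4 passed it and 5 turned. The 5 were all Grm4 by housing. In dnFGFR mice it was 0.05 with the GC and length trend removed, 0.05 with the trend removed and the replicate block together, and 0.01 with the trend removed and without dnFGFR OS replicate 5, an alternative chosen after seeing the data. Over both genotypes it was 0.01 with the trend removed and 0 with the trend removed and the block together. With the replicate block alone it was -0.16 in dnFGFR mice and -0.13 over both genotypes, as without it. Replicate numbers did not pair the mice, since correlations of same-numbered mice ranged from -0.235 to 0.258. With the replicate block, 0 members were called in each comparison, and 23 genes of all tested in control mice against 21 without it. Over all genes in control mice, DESeq2 called 157, voom 66, the GC and length correction 36, a threshold of 0.05 left 6 and a fit of all 4 groups 0. With 5 mice a group, differences of over 3 SEs, such as Shank3 in dnFGFR mice, did not pass the adjusted threshold. RPKM from the longest transcript moved 11 of 38 levels by more than 1 SD.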
